A study of Mus musculus with 9 samples.

Results

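Transcription factor genes that build the heart, chosen by name, were followed across the *Ctcf* genotypes: 10 of the 24597 gene symbols in the table. They were the GATA factors *Gata4* and *Gata6*, the homeodomain factors *Nkx2-5* and *Irx4*, the T-box factors *Tbx5* and *Tbx20*, the MADS-box factor *Mef2c*, the basic helix-loop-helix factors *Hand1* and *Hand2*, and the LIM-homeodomain factor *Isl1*. All 10 were present in the table, and 9 reached a mean of 1 TPM, the transcript abundance unit of the table, and entered the fit; *Isl1* did not. Poly(A)-selected RNA of hearts from C57BL/6N embryos at E18.5 had been sequenced, with 3 libraries each from wild-type hearts, from hearts heterozygous for the R567W allele of *Ctcf* (*Ctcf* +/R567W) and from hearts homozygous for it (*Ctcf* R567W/R567W). The allele is a constitutive missense change made by CRISPR/Cas9 editing, so all cells of the embryo carry it, and no other treatment was given. *Ctcf* encodes the zinc-finger protein that anchors many chromatin loops, and the comparisons ask whether the substitution alters transcript levels in the heart.

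These factors bind DNA side by side at cardiac enhancers and promoters. GATA4, NKX2-5, TBX5 and MEF2C contact each other and activate sarcomere, ion channel and natriuretic peptide genes together, and several of them maintain each other's transcription. HAND1, HAND2, IRX4 and ISL1 mark regions or stages: IRX4 and HAND1 the ventricles, HAND2 the right ventricle and outflow tract, and ISL1 the second heart field progenitors and later the sinoatrial node. In people, loss of a copy of *GATA4*, *NKX2-5*, *TBX5* or *TBX20* causes congenital heart defects.

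The libraries differed in ways that touch these genes. Cardiomyocyte markers, 8 of 8 detected, summed to between 21633 and 30558 TPM per library. Homozygous replicate 3 also held the 15 thymocyte markers at a sum of 836 TPM and the 6 thymic epithelium markers at 282 TPM, against at most 5.30 and 10.3 TPM in the other 8 libraries. Wild-type replicate 1 held airway and lung markers at 2628 TPM, and heterozygous replicate 1 held them at 1109 TPM together with liver markers at 3298 TPM; all other libraries were at or below 52.8 TPM for lung and 71.1 TPM for liver. *Xist* was at 87.8 to 146 TPM in wild-type replicate 1, the 3 heterozygous libraries and homozygous replicate 1, and Y-linked genes were read in the other 4, so the sexes were not balanced across genotypes. *Ctcf* itself was at 27.0 to 34.3 TPM (wild type), 33.2 to 38.7 TPM (heterozygous) and 38.9 to 50.2 TPM (homozygous); a missense allele is read as the same gene, so this level does not check the labels. TPM keeps no depth, so the read number behind a value is unknown and the spread between libraries is the only error.

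**Figure D1:**
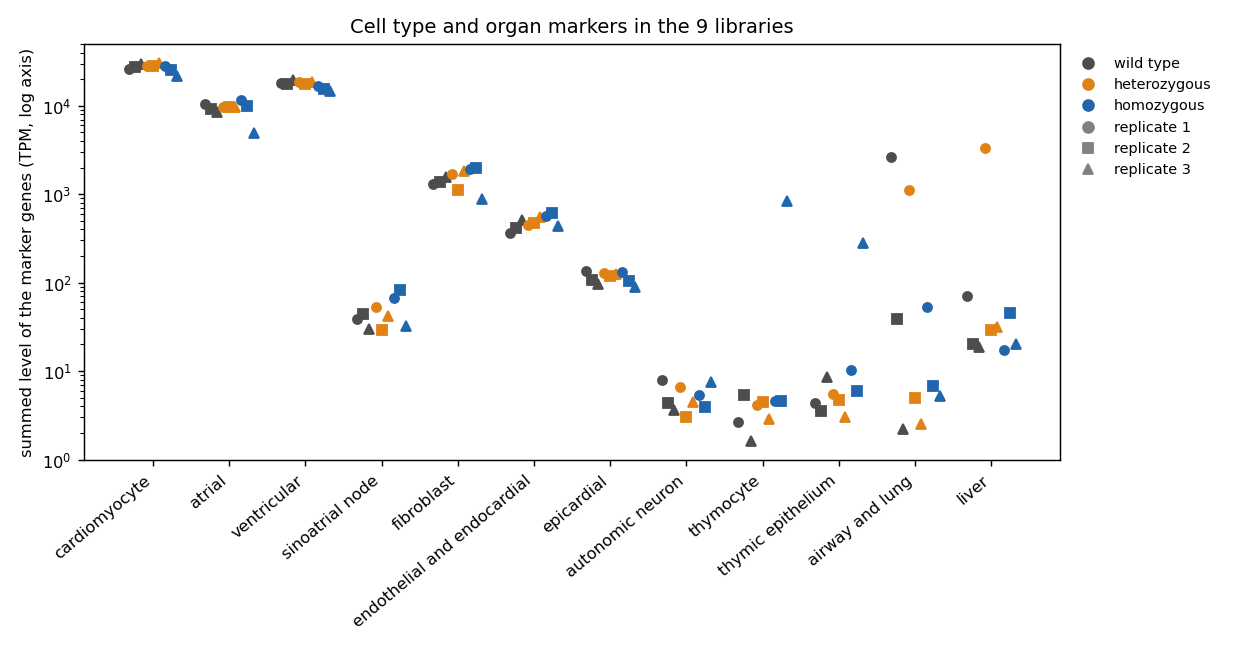
Summed level of marker genes (TPM, log axis) for 12 cell types or organs, with 1 point for each of the 9 libraries, coloured by genotype and shaped by replicate. Homozygous replicate 3 stands alone in the thymocyte and thymic epithelium lists (836 and 282 TPM) and is the lowest in the atrial and fibroblast lists (4929 and 880 TPM), while wild-type replicate 1 and heterozygous replicate 1 stand out in the lung list.

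The levels of the 10 genes differed widely on the TPM scale, which corrects for transcript length. *Nkx2-5* was the highest, with a mean over the 9 libraries of 136.6 TPM, followed by *Gata4* (119.8), *Tbx20* (92.6), *Gata6* (75.7), *Hand2* (52.1), *Mef2c* (38.8), *Irx4* (33.3), *Tbx5* (26.1), *Hand1* (4.53) and *Isl1* (0.794). *Nkx2-5* stood above 94.9% of the tested genes and *Tbx5* above 72.2%, whereas *Hand1* stood above 25.3%. *Nkx2-5* exceeded *Gata4*, *Gata6* exceeded *Hand2*, and *Hand2* exceeded *Mef2c* within each of the 9 libraries, although their ranges over libraries overlapped. *Gata4* exceeded *Tbx20* in 8 libraries, *Tbx20* exceeded *Gata6* in 7, *Mef2c* exceeded *Irx4* in 6 and *Irx4* exceeded *Tbx5* in 7, so those neighbours did not separate beyond their spread. The steps from *Tbx5* to *Hand1* and from *Hand1* to *Isl1* were the ones without overlap. Between libraries, *Hand2* varied least, with a coefficient of variation of 9.41%, then *Nkx2-5* (10.6%) and *Gata4* (11.4%); *Tbx5* (29.8%), *Tbx20* (25.1%), *Hand1* (24.0%) and *Mef2c* (22.5%) varied more than the median of 16.1% among genes of at least 5 TPM.

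**Figure D2:**
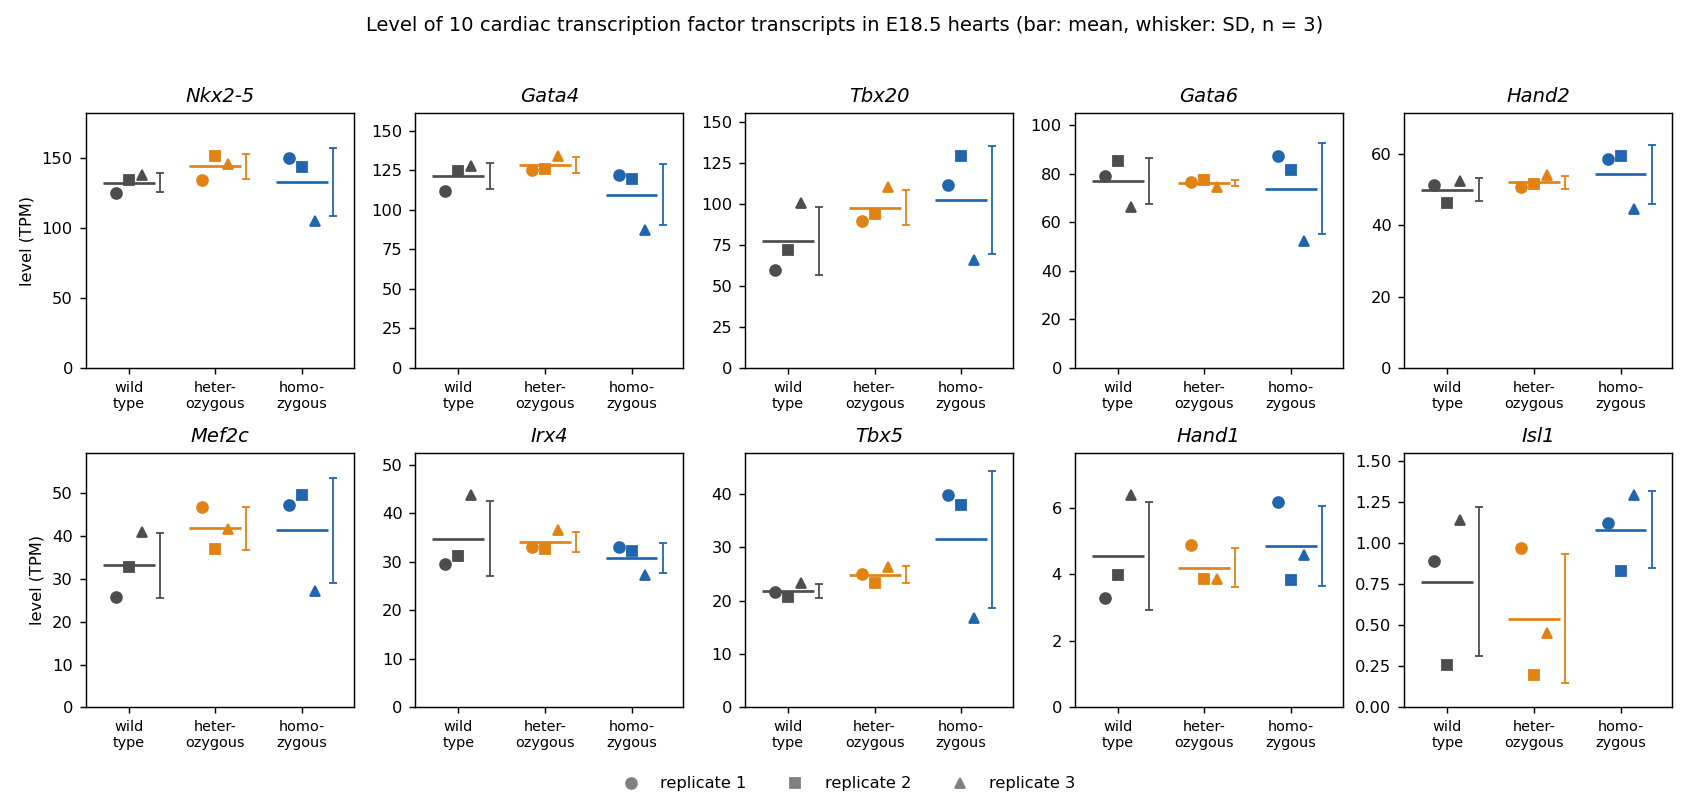
Level (TPM, linear axes from 0) of the 10 transcription factor genes in the 3 wild-type, 3 heterozygous and 3 homozygous hearts, with 1 symbol for each replicate, the mean as a bar and the SD as a whisker. Homozygous replicate 3 lies below the other homozygous replicates for 8 of the 10 genes, most widely for *Tbx5* (16.7 against 38.0 and 39.8 TPM).

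*Tbx5*, the T-box activator of the atria, the left ventricle and the conduction system, gave the highest fitted difference among the 9 genes between homozygous and wild-type hearts. It lies on chr5:119832668-119885219 (mm10, plus strand). Wild-type hearts held it at 21.6, 20.7 and 23.3 TPM and heterozygous hearts at 24.9, 23.3 and 26.4 TPM. Homozygous hearts held 39.8, 38.0 and 16.7 TPM: replicates 1 and 2 were above all 6 libraries of the other genotypes and replicate 3 was below all 8 others, so the groups overlapped. The means were 21.9 ± 1.32, 24.9 ± 1.54 and 31.5 ± 12.8 TPM (SD, n = 3 each). On the log2(TPM + 1) scale the homozygous libraries were 0.41 above wild type (SE 0.26, 95% interval -0.17 to 1.0), and limma's adjusted p of 0.328 did not pass. Without homozygous replicate 3 the same difference was 0.80 (SE 0.10, 95% interval 0.57 to 1.04) with an adjusted p of 0.0189 in limma, and the gene was then called higher. With wild-type replicate 1 left out as well it was 0.79 with an adjusted p of 0.0609, and with all 3 libraries that held markers of other organs left out it was 0.79 with an adjusted p of 0.120 (both limma). Whether those markers have a part in the *Tbx5* difference was not tested, and in bulk RNA fewer cells of a type and less RNA per cell cannot be told apart.

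*Tbx20*, the T-box factor that holds down *Tbx2* in chamber muscle and shapes the valves, lies on chr9:24718138-24774303 (minus strand). Its levels were 59.8, 72.1 and 100.4 TPM (wild type), 89.7, 93.8 and 110.2 TPM (heterozygous) and 111.7, 129.6 and 65.8 TPM (homozygous). Again homozygous replicates 1 and 2 exceeded all others, and replicate 3 fell among the wild-type values. The differences to wild type were 0.37 (95% interval -0.18 to 0.92, adjusted p = 0.342, limma) for homozygous and 0.36 (-0.19 to 0.91, adjusted p = 0.672, limma) for heterozygous hearts. Without homozygous replicate 3 the first became 0.66 (0.20 to 1.12), with an adjusted p of 0.0891 in limma that still missed the threshold. That fit kept wild-type replicate 1, which held lung markers and the lowest of the 9 *Tbx20* values (59.8 TPM). The difference with both libraries left out is not reported here.

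*Mef2c*, which drives right ventricular and outflow tract muscle, lies on chr13:83504034-83667080 (plus strand). It was at 25.8, 32.8 and 40.9 TPM (wild type), 46.9, 36.9 and 41.7 TPM (heterozygous) and 47.2, 49.5 and 27.2 TPM (homozygous), a pattern over libraries like that of *Tbx20*. The homozygous libraries were 0.29 above wild type (95% interval -0.23 to 0.80, adjusted p = 0.429, limma) and the heterozygous libraries 0.34 (-0.17 to 0.86, adjusted p = 0.672, limma). Without homozygous replicate 3 the homozygous difference was 0.56 (0.14 to 0.98, adjusted p = 0.0991, limma). Here too wild-type replicate 1 was kept, which held the lowest of the 9 *Mef2c* values (25.8 TPM), and the difference without both is not reported here. The groups overlapped with all libraries included.

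*Hand2*, the basic helix-loop-helix factor of the right ventricle, outflow tract and epicardium, lies on chr8:57320983-57324633 (plus strand). It was the steadiest of the 10, at 51.4, 46.4 and 52.3 TPM (wild type), 50.7, 51.5 and 54.0 TPM (heterozygous) and 58.7, 59.5 and 44.7 TPM (homozygous). The homozygous difference was 0.11 (95% interval -0.17 to 0.39, adjusted p = 0.590, limma), and 0.24 (0.03 to 0.44, adjusted p = 0.119, limma) without homozygous replicate 3. Its relative *Hand1*, which marks the outer curvature of the embryonic left ventricle, lies on chr11:57828705-57832818 (minus strand) and was low: 3.29, 3.97 and 6.38 TPM (wild type), 4.88, 3.87 and 3.85 TPM (heterozygous) and 6.16, 3.82 and 4.59 TPM (homozygous). These 9 values mixed across genotypes, and the homozygous difference was 0.10 (95% interval -0.41 to 0.61, adjusted p = 0.799, limma).

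The promoters of *Hand2*, *Tbx20* and *Mef2c* are shown because these genes varied most alike with *Tbx5* or with each other over the libraries; RefSeq's promoter table used here (GRCm38.p6) gave 8 windows, 3 of them for *Mef2c* and 1 each for *Hand2*, *Tbx20*, *Irx4*, *Nkx2-5* and *Isl1*; *Tbx5*, *Gata4*, *Gata6* and *Hand1* were not matched. All are written 5′ to 3′; those of *Hand2* and *Tbx20* are the 250 bases that end at the base before the transcript start, and that of *Mef2c* is the first 67 bases of such a window, so it ends short of the start. Capitals mark GATA motifs in *Hand2* (GATA after A or T and before A or G, either strand) and a T-box element in *Mef2c* (AGGTGT, either strand). The *Hand2* window, chr8:57320733-57320982 on the plus strand, also lies in an exon of the antisense transcript *Hand2os1*; the *Mef2c* stretch is chr13:83523406-83523472 on the plus strand, from an internal start of the gene, and the *Tbx20* window is chr9:24774304-24774553 on the minus strand.
Hand2: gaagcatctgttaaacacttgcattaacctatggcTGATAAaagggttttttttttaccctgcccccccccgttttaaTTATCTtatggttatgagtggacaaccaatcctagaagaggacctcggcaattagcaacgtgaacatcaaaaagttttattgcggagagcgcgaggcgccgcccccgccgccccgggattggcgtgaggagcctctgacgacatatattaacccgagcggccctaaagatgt
Mef2c: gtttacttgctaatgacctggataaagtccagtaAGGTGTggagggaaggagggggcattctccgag
Tbx20: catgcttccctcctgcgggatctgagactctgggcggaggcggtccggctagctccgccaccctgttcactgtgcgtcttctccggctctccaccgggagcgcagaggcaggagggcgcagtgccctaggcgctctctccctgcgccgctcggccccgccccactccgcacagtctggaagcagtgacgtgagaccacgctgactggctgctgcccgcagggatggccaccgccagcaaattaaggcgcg
In *Hand2* the GATA motifs began at positions -215 and -172 relative to the start, and in *Mef2c* the T-box element began at -216; the *Tbx20* window held none of the motifs searched. Over the 250 bases upstream, a GATA motif was in 2 of the 8 windows (*Hand2* and *Isl1*) and in 26.6% of all 32817 promoters, and a T-box element was in 1 of 8 and in 11.8% of all. The E-box CANNTG, the motif class of HAND proteins, was in 5 of 8 and 66.2% of all. An NKX2 element (TNAAGTG), a MEF2 site and a CTCF core motif, searched on both strands, were in 0 of 8, against 10.1%, 3.20% and 2.07% of all promoters. No match overlapped one of another motif, and a match or its absence describes only the letters of these windows.

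*Gata4*, the zinc-finger activator needed for the heart tube to form and for muscle growth, lies on chr14:63198922-63271692 (minus strand). Its levels were 111.9, 124.3 and 127.5 TPM (wild type), 125.0, 126.0 and 134.2 TPM (heterozygous) and 122.1, 119.5 and 87.2 TPM (homozygous). All homozygous values were below all heterozygous ones, by 0.24 on the log2 scale (95% interval -0.54 to 0.05, adjusted p = 0.762, limma), so the test did not pass. After median-ratio scaling this difference was -0.33 (95% interval -0.54 to -0.11, adjusted p = 0.304, limma), again without a call. In TPM as deposited, *Gata4* was the only gene of the 9 tested, over 3 comparisons, whose groups did not overlap (1 of 9 in this comparison, 11.1%). Of all tested genes, 15.9% separated homozygous from heterozygous hearts in either direction, and 3.85% were lower, as *Gata4* was. Against wild type the homozygous libraries were at -0.16 (95% interval -0.45 to 0.14, adjusted p = 0.449, limma), and at -0.00 (-0.20 to 0.19) without homozygous replicate 3.

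*Gata6*, its relative in the myocardium and in smooth muscle of the great vessels, lies on chr18:11052064-11085635 (plus strand). It was at 79.3, 85.4 and 66.5 TPM (wild type), 76.6, 77.3 and 74.7 TPM (heterozygous) and 87.5, 81.6 and 52.5 TPM (homozygous), so that the homozygous libraries held both the highest and the lowest value. The homozygous difference to wild type was -0.09 (95% interval -0.48 to 0.31, adjusted p = 0.765, limma).

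*Nkx2-5*, the homeodomain factor of the cardiac lineage that maintains chambers and conduction system, lies on chr17:26838664-26845009 (minus strand). Its levels were 125.1, 134.3 and 138.3 TPM (wild type), 134.7, 151.8 and 146.0 TPM (heterozygous) and 150.4, 143.7 and 105.3 TPM (homozygous). The homozygous mean equalled that of wild type within the spread (133.1 ± 24.4 against 132.6 ± 6.79 TPM, SD, n = 3 each), and the difference was -0.01 (95% interval -0.31 to 0.29, adjusted p = 0.968, limma).

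*Irx4*, the Iroquois homeodomain factor that keeps ventricular muscle from expressing atrial genes, lies on chr13:73260479-73269608 (plus strand). It was at 29.6, 31.1 and 43.8 TPM (wild type), 33.2, 32.8 and 36.6 TPM (heterozygous) and 33.1, 32.2 and 27.3 TPM (homozygous). Apart from wild-type replicate 3, at the top, and homozygous replicate 3, at the bottom, the values lay within a narrow band. The homozygous difference was -0.15 (95% interval -0.49 to 0.19, adjusted p = 0.531, limma).

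*Isl1*, the LIM-homeodomain factor of progenitors and pacemaker cells, lies on chr13:116298281-116309689 (minus strand) and was close to the lower limit of the table. It was at 0.89, 0.26 and 1.14 TPM (wild type), 0.97, 0.20 and 0.45 TPM (heterozygous) and 1.12, 0.83 and 1.29 TPM (homozygous). It was the only one of the 10 with its highest value in homozygous replicate 3. It had no place in the fit of genes at or above 1 TPM; with no filter on low values its homozygous difference to wild type was 0.27 (95% interval -0.30 to 0.83, adjusted p = 0.585, limma).

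Across the 9 tested factors, none was called at an adjusted p under 0.05 between homozygous and wild-type hearts, where limma called 46 of 13682 genes (0.336%), and none had an unadjusted p under 0.05, against 25% of all genes. None separated the groups without overlap, against 24.7% of all genes. Homozygous against heterozygous gave 0 of 9 called (6 genes in all, 0.0439%), and 0 of 9 had an unadjusted p under 0.05 (7.15% of all). Heterozygous against wild type gave 0 of 9 called (2 genes in all, 0.0146%), 0 of 9 with an unadjusted p under 0.05 (6.87% of all) and 0 of 9 without overlap (13.8% of all). Fitted differences ran from -0.24 for *Gata4* to 0.23 for *Tbx5* against heterozygous hearts, and from -0.06 for *Hand1* to 0.36 for *Tbx20* between heterozygous and wild-type hearts. The intervals of the homozygous difference to wild type ended above 0 at between 0.14 for *Gata4* and 1.0 for *Tbx5*, and below 0 at between -0.17 for *Tbx5* and -0.49 for *Irx4*. These bounds hold for TPM as deposited. After median-ratio scaling *Gata4* was at -0.41 (95% interval -0.63 to -0.19, adjusted p = 0.0726, limma), *Irx4* at -0.40 (-0.59 to -0.20, adjusted p = 0.0601, limma) and *Nkx2-5* at -0.26 (-0.51 to -0.01, adjusted p = 0.249, limma), with intervals wholly below 0 and no call. After quantile normalization *Gata4* was at -0.25 (-0.44 to -0.06) and *Irx4* at -0.34 (-0.55 to -0.13), again without a call.

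These differences need the shift of the whole table beside them. The median of all tested genes was 0.23 higher in homozygous than in wild-type hearts, 0.08 higher than in heterozygous hearts, and 0.15 higher in heterozygous than in wild-type hearts. The median of the 9 factors was 0.10, -0.06 and 0.08 in the same 3 comparisons. In homozygous against wild type 3 of the 9, *Tbx5*, *Tbx20* and *Mef2c*, were above the median of all genes, by 0.18, 0.14 and 0.06, and *Gata4* and *Irx4* were the farthest below it, by 0.39 and 0.38. After median-ratio scaling, which set the median of all genes to 0.01, the factors' median was -0.14 and *Tbx5* was at 0.17, so the sign of a small difference depends on the scaling.

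**Figure D3:**
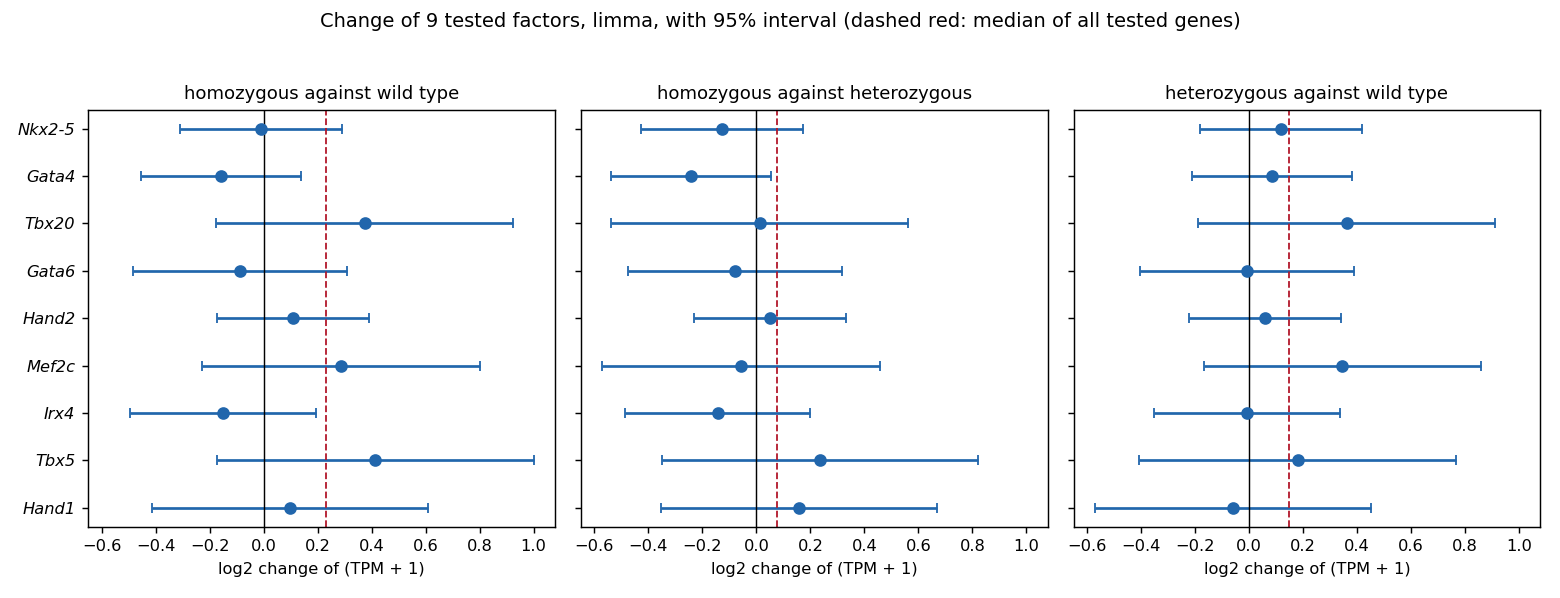
Fitted difference (log2 scale of TPM + 1) of the 9 tested factors in the 3 comparisons, with the 95% interval from limma as a bar; the solid line is 0 and the dashed line the median of all 13682 tested genes. All 27 intervals include 0, and in homozygous against wild type *Tbx5*, *Tbx20* and *Mef2c* lie to the right of the dashed line at 0.23.

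Homozygous replicate 3 stood apart for most of these genes. It was below both other homozygous libraries for 8 of the 10 genes, as it was for 58.7% of all tested genes, and it held the lowest of the 9 values for 6 of 10, against 16.3% of all tested genes. The factors differed in how far it fell short. Relative to the mean of the other homozygous pair it held 0.430 of *Tbx5*, 0.545 of *Tbx20*, 0.562 of *Mef2c* and 0.621 of *Gata6*. It held 0.716 of *Nkx2-5*, 0.722 of *Gata4*, 0.757 of *Hand2*, 0.837 of *Irx4*, 0.920 of *Hand1* and 1.32 of *Isl1*, and the median of all tested genes was 0.873. The same library was the lowest of the 9 for atrial markers, at 4929 TPM against 8570 to 11738 in the others, and for fibroblast markers, at 880 TPM against 1121 to 1979. Its sum was also the lowest for cardiomyocyte markers (21633 against 25359 to 30558 TPM), ventricular markers (14855 against 15445 to 19357 TPM) and epicardial markers (89.6 against 97.0 to 136 TPM). A sum speaks mainly for its most abundant genes, and *Myl2* alone gave 10100 of these 14855 TPM. Not each listed marker was lowest there: *Hey2* and *Ttn*, for example, were above wild-type replicate 1. Nor was each sum. For endothelial and endocardial markers homozygous replicate 3 was at 442 TPM, above wild-type replicates 1 and 2 (362 and 415 TPM). For smooth muscle markers it was at 381 TPM, above homozygous replicate 2 (285 TPM). For the 6 sinoatrial node markers homozygous replicates 1 and 2 were the highest of the 9, at 67.0 and 82.0 TPM, while homozygous replicate 3, at 32.0 TPM, lay within the 28.9 to 53.3 TPM of the other genotypes. The part of these markers in the lower factor levels was not tested.

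Without that library 5 of the 9 factors, *Tbx5*, *Tbx20*, *Mef2c*, *Hand2* and *Nkx2-5*, were higher in homozygous than in wild-type hearts without overlap, and so were 46.9% of all tested genes. *Tbx5* alone among the 9 was called, and limma then called 247 genes (1.81%). *Gata4*, *Gata6*, *Irx4* and *Hand1* still overlapped. Weighting each library by its distance from the fit (limma's arrayWeights, whose estimation stopped before it converged) gave homozygous replicate 3 the lowest weight (0.199) and wild-type replicate 2 the highest (8.54). Then 5 factors were called higher in homozygous hearts, *Tbx5* by 0.84, *Tbx20* by 0.63, *Mef2c* by 0.50, *Hand1* by 0.40 and *Hand2* by 0.31, among 8755 genes called in all (64%), so these calls are near the background of that setting. In heterozygous against wild type the weights called *Tbx20* (0.41) and *Mef2c* (0.39) higher, among 4425 genes (32.3%). Leaving out other single libraries called none of the 9.

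**Figure D4:**
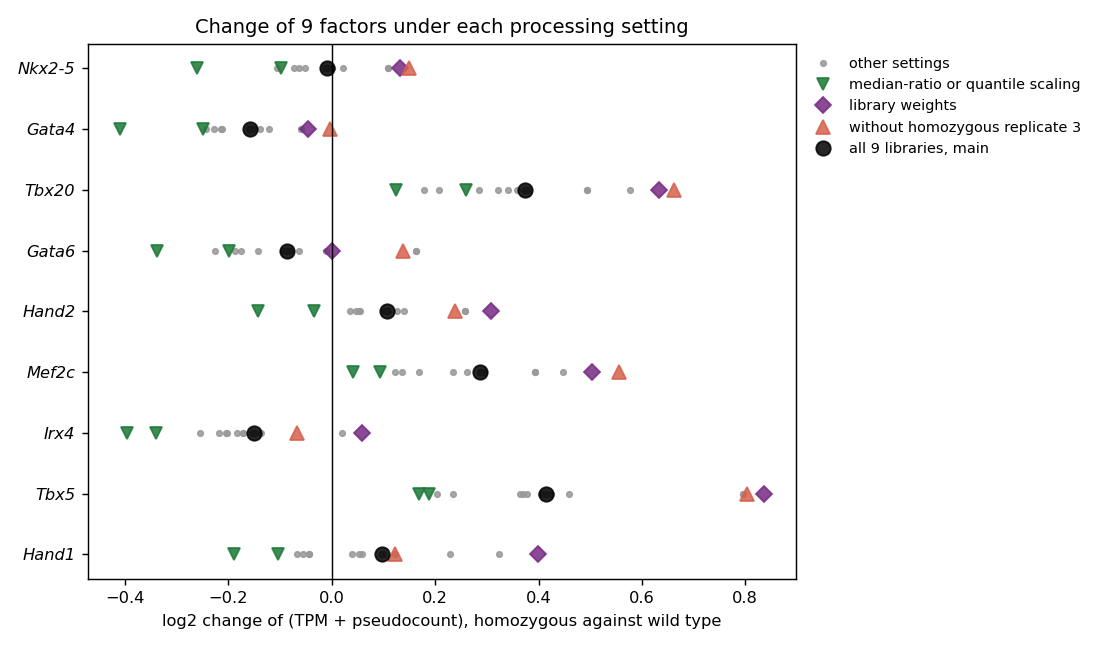
Difference of the 9 factors between homozygous and wild-type hearts (log2 scale) under each processing setting, with the value from all 9 libraries as a black circle. *Tbx5* moves from 0.41 to 0.80 without homozygous replicate 3 and to 0.17 after median-ratio scaling, and *Hand2* and *Hand1* fall below 0 after both rescalings between libraries.

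Ratios between relatives within a library do not depend on the scaling. *Gata4* exceeded *Gata6* by 1.39 to 1.92 times in each library, *Tbx20* exceeded *Tbx5* by 2.77 to 4.31 times, and *Hand2* exceeded *Hand1* by 8.20 to 15.6 times. In each of the 3 pairs the genotypes overlapped. The 9 exact two-sided permutation tests gave p between 0.2 and 0.9 and adjusted p of 0.9, where 3 against 3 libraries cannot go below 0.1. The *Tbx20* to *Tbx5* ratio in homozygous replicate 3 was 3.93, inside the range of the other libraries, since both genes were low there.

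The Iroquois family showed a different relation. *Irx1*, *Irx2*, *Irx3* and *Irx5* encode homeodomain relatives of IRX4, and they were chosen for comparison with *Irx4* after their values had been seen. *Irx2* was at 8.30, 7.97 and 10.8 TPM (wild type), 14.4, 13.7 and 14.4 TPM (heterozygous) and 18.4, 16.5 and 12.4 TPM (homozygous). *Irx3* was at 9.16, 9.95 and 13.7 TPM (wild type), 15.2, 16.8 and 15.9 TPM (heterozygous) and 20.3, 16.1 and 16.9 TPM (homozygous). For both genes, and also for *Irx1* and *Irx5*, all 3 homozygous and all 3 heterozygous values were above all 3 wild-type values. Taken separately, this held for 22.3% (homozygous) and 12.8% (heterozygous) of all tested genes, and the share that met both conditions was not computed. None was called: the homozygous differences were 0.73 for *Irx2* (SE 0.17, adjusted p = 0.0884), 0.66 for *Irx3* (SE 0.16, adjusted p = 0.0970), 0.67 for *Irx5* (SE 0.18, adjusted p = 0.107) and 0.59 for *Irx1* (SE 0.17, adjusted p = 0.112), all from limma.

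Within each library *Irx4* was the most abundant of the 5. The *Irx2* to *Irx4* ratio was 0.281, 0.256 and 0.248 in wild-type, 0.434, 0.417 and 0.393 in heterozygous, and 0.554, 0.511 and 0.452 in homozygous hearts, so all 3 genotypes separated. The *Irx3* to *Irx4* ratio had means of 0.314, 0.468 and 0.577 in the same order, with the mutant genotypes overlapping each other and both above wild type. The 4 ratios were higher in homozygous than in wild-type hearts by 0.82 to 0.95 on the log2 scale. *Irx4* itself was at -0.38 relative to the median of all tested genes in this comparison. A gene at that median would therefore also rise relative to *Irx4*, and the share of all genes whose ratio to *Irx4* separated was not computed. For these 4 differences each exact two-sided permutation test gave 0.1, the smallest p that 3 against 3 libraries allow. The adjusted p was 0.133 over 12 tests. The same test gave 0.2 for *Irx3* against heterozygous, and for *Irx1* and *Irx5* between heterozygous and wild type. As the genes were chosen after their values were seen, these p-values are no independent support. Leaving out any 1 of the 6 libraries kept the homozygous differences to wild type between 0.69 and 1.03, homozygous replicate 3 included. *Irx6*, under the filter, was at 0.48, 0.32 and 0.10 TPM (wild type) and 2.22, 1.41 and 0.72 TPM (homozygous).

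**Figure D5:**
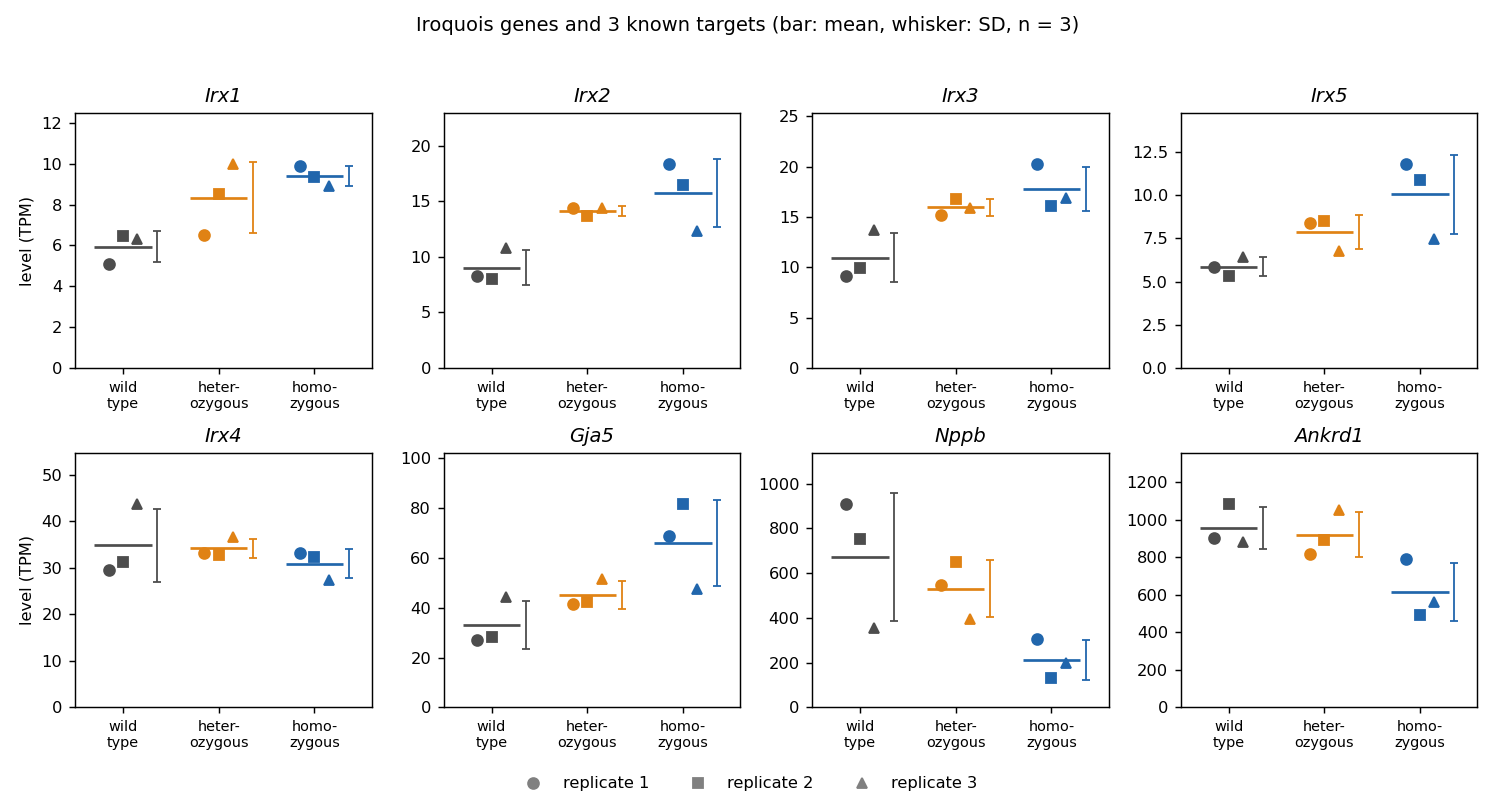
Level (TPM, linear axes from 0) of 5 Iroquois genes and 3 target genes in the 9 hearts, with 1 symbol for each replicate, the mean as a bar and the SD as a whisker. *Irx1*, *Irx2*, *Irx3* and *Irx5* lie above all wild-type values in the homozygous hearts, *Irx4* overlaps, *Gja5* is higher, and *Nppb* and *Ankrd1* are lower.

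*Irx2* and *Irx4* are next to each other in the genome. *Irx2* was the nearest protein-coding gene on one side of *Irx4*, 626 kb away, and *Ndufs6*, a subunit of respiratory complex I, was the nearest on the other, 50.2 kb away. *Ndufs6* was at 413, 388 and 428 TPM (wild type), 388, 387 and 412 TPM (heterozygous) and 351, 331 and 313 TPM (homozygous), all homozygous values being the lowest (difference to wild type -0.31, adjusted p = 0.113, limma). Next to *Tbx5*, the long noncoding RNA *Gm43050* starts 0.747 kb away on the opposite strand. It was at 6.60, 5.32 and 12.0 TPM (wild type), 9.64, 9.75 and 13.1 TPM (heterozygous) and 16.9, 15.7 and 7.88 TPM (homozygous), so it shared with *Tbx5* the high values of homozygous replicates 1 and 2 and the lower value of replicate 3 (difference 0.70, adjusted p = 0.195, limma). The coding neighbours of *Tbx5*, *Tbx3* and *Rbm19*, were at 0.17 and 0.27 and overlapped.

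Among the other neighbours, *Fbxo8*, 727 kb from *Hand2*, and *Mib1* and *Rbbp8*, 233 kb and 548 kb from *Gata6*, were higher in homozygous than in wild-type hearts without overlap, by 0.48, 0.25 and 0.34, with adjusted p of 0.107, 0.202 and 0.209 in limma. With *Irx2*, 4 of the 17 neighbours tested (23.5%) were higher without overlap in this comparison, near the 22.3% of all tested genes. The transcript *1010001N08Rik*, which overlaps the start of *Gata6* on the opposite strand, averaged 19.9 TPM and differed by 0.06 (adjusted p = 0.823, limma); the use of strand in counting is not stated, so reads of overlapping genes may be shared. *Bnip1* and *Kifc5b* beside *Nkx2-5*, *Cetn3* and *Tmem161b* beside *Mef2c*, *Sap30l* and *Larp1* beside *Hand1*, and *Itga1* and *Parp8* beside *Isl1* overlapped between these genotypes. *Neil2* and *Blk* beside *Gata4*, *Dpy19l2* beside *Tbx20* and *Scrg1* beside *Hand2* were below the filter, and *Gm10181*, *Gm29824* and *Hand2os1* were not analysed here. No neighbour was called in any comparison.

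A wider list of 43 other cardiac transcription factors and cofactors held 37 tested genes, and none of them was called in any comparison. Between homozygous and wild-type hearts 33 of the 37 were above 0 and 4 below, with a median of 0.25 beside 0.23 for all genes. Of these, 5 (13.5%) were higher without overlap and 0 lower, against 22.3% and 2.38% of all genes. The Iroquois genes *Irx1*, *Irx2*, *Irx3* and *Irx5* were among them. Between heterozygous and wild-type hearts 8 of the 37 (21.6%), these Iroquois genes included, were higher without overlap, against 12.8% of all genes, and 0 were lower. Homozygous against heterozygous gave 1 higher and 1 lower (5.41% without overlap, against 15.9% of all genes). *Hopx*, a homeodomain-only cofactor at a mean of 324 TPM, was the lowest, at -0.21 (adjusted p = 0.303, limma).

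Genes known as targets of these factors lay on both sides of 0 between homozygous and wild-type hearts. Of 28 tested, 0 were called in each comparison, 14 were above and 14 below 0 in that one, and their median was -0.01 beside 0.23 for all genes. Of the 28, 4 (*Nppb*, *Ankrd1*, *Myl2* and *Tnnc1*) were lower (14.3%, against 2.38% of all tested genes) and 1 (*Gja5*) higher without overlap (3.57%, against 22.3%). Against heterozygous hearts 6 were above and 22 below 0 with a median of -0.15, and 7 (25%, against 3.85% of all) were lower and 0 higher without overlap. Between heterozygous and wild-type hearts 22 were above and 6 below 0 with a median of 0.11, where 81.5% of all tested genes were above 0 with a median of 0.15. In that comparison 1 was higher without overlap (3.57%, against 12.8% of all). *Nppb*, the B-type natriuretic peptide gene, was at 911, 752 and 357 TPM (wild type), 545, 649 and 396 TPM (heterozygous) and 306, 129 and 200.5 TPM (homozygous), lower than wild type by 1.64 on the log2 scale (SE 0.37, adjusted p = 0.0882, limma). *Gja5*, the gap junction gene of atria and conduction fibres and a target of TBX5 and NKX2-5, was at 27.2, 28.3 and 44.4 TPM (wild type), 41.4, 42.2 and 51.4 TPM (heterozygous) and 68.9, 81.8 and 47.4 TPM (homozygous). Its homozygous values were above all wild-type ones (difference 0.97, SE 0.23, adjusted p = 0.0961, limma), and homozygous replicate 3 was again the lowest of its group. *Ankrd1*, a stretch-responsive cofactor of the titin filament, was at 901, 1086 and 880 TPM (wild type), 820, 892 and 1052 TPM (heterozygous) and 789, 491 and 562 TPM (homozygous) (difference -0.66, SE 0.17, adjusted p = 0.101, limma). None of the 3 passed the test.

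Over the 9 libraries the levels of the 9 tested factors moved mostly in one direction: 35 of 36 pairs had a Pearson r above 0 on the log2 scale, with a median of 0.57. The same share over pairs of all tested genes was not computed, so it is not known whether the factors differ from other genes in this. The points share the scaling of TPM, the 3 genotypes and homozygous replicate 3, and without that library 28 of 36 were above 0 with a median of 0.40. *Tbx5* and *Hand2* (r = 0.95, and 0.92 without homozygous replicate 3) and *Tbx20* and *Mef2c* (0.92 and 0.91) were the most alike. *Gata4* and *Nkx2-5* (0.89) fell to 0.55 without it, and *Gata4* and *Gata6* went from 0.71 to -0.41. *Gata6* and *Hand1* (-0.17) were the least alike over the 9 libraries, and *Gata6* and *Irx4*, which went from 0.10 to -0.80, without homozygous replicate 3.

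Among all tested genes, *Tm7sf3* and *Maged2* were the most like *Tbx5* over the 9 libraries (Pearson r = 0.99 each), *Pygb* and *Tmem2* the most like *Tbx20* (0.99 each), and *Nrk* and *Cyp39a1* the most like *Mef2c* (0.98 each). *Napepld* and *Prepl* were nearest to *Gata4* (0.98 each), *Usp2* to *Nkx2-5* (0.96), *Col23a1* and *Rnaset2b* to *Hand2* (0.97 each), and *Mpi* and *Rapsn* to *Irx4* (0.97 and 0.96). *Shroom2* and *F2r* were nearest to *Gata6* (0.94 each), and *Cdc45* and *Syce2* to *Hand1* (0.96 and 0.95). *Tbx20* had 996 genes with an r above 0.9 and *Mef2c* had 436, whereas *Gata6* had 11 and *Hand1* had 7, so the first pair followed a pattern over libraries that many genes had.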

How the data were processed

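Hearts were profiled by poly(A) RNA sequencing in 9 libraries, and each library was assigned to its genotype from its title. The methods state that hearts were collected singly; p-values measure the spread between these libraries. Per the labels and methods, the authors trimmed reads with Trim Galore, aligned them to mm10 with STAR and quantified genes with RSEM; the deposited table holds TPM, length-corrected abundances scaled to a fixed library total, so depth is not kept and count tests, DESeq2 included, could not be used. Which annotation release was used, and whether counting used strand, is not given in the sources used here. Of 24597 symbols, 26 turned into dates were left out.

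Values were analysed as log2(TPM + 1) with limma (v3.58.1, R v4.3.3; mean-variance trend) for the 13682 genes whose mean reached 1 TPM, in a model of the 3 genotypes over all 9 libraries without covariates. Tests were two-sided and adjusted by Benjamini-Hochberg over all tested genes of a comparison, and an adjusted p under 0.05 was called. On this scale the change of a low gene is understated. Groups were said not to overlap when all values of a group lay above all of the other. Ratios between relatives used exact permutation. The procedure was tested on simulated data.

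The 10 genes, the 2 further lists and the marker lists were chosen with earlier results of these data known. All 10 were named whatever their values, with the genes of the further lists that were called, the 3 of each list with the largest homozygous difference at a mean of at least 5 TPM, the nearest coding gene on each side, opposite-strand genes within 5 kb of a start, and the 2 genes most like each factor; *Irx1*, *Irx6*, *Hopx*, *Myl2* and *Tnnc1* were named after their values were seen. Some genes that these rules name are not reported here. Gene positions came from GENCODE M21 on GRCm38, and promoters from RefSeq. Alternatives covered pseudocount, filter, scaling, library weights (arrayWeights), samples, sex, replicate block and single omissions.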

Additional observations from a re-analysis of the deposited data

How the results depend on the processing

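The 27 differences of the 9 factors were recomputed under 22 further settings, which gave 591 values: 523 kept their direction and their side of the threshold, 8 passed the threshold and 60 changed sign, with no value past the threshold among the latter. Some settings could change only the p-value and not the difference. These were the other filters, only the compared groups, the replicate block, and omission of a library outside the comparison. The 523 include such values, so their number overstates how stable the directions were. The factors called changed in 2 of the settings: library weights gave 5 in homozygous against wild type and 2 in heterozygous against wild type (*Tbx20* and *Mef2c*), and the omission of single libraries gave 0 to 1 (*Tbx5*, without homozygous replicate 3). The cause of each change was not tested. With library weights *Nkx2-5* (0.13) and *Irx4* (0.058) were above 0 in homozygous against wild type, *Gata6* (0.15), *Nkx2-5* (0.051) and *Mef2c* (0.12) against heterozygous, and *Irx4* (0.11) and *Hand1* (0.097) between heterozygous and wild type. Median-ratio scaling put *Hand1* (-0.10) and *Hand2* (-0.14), then *Tbx20* (-0.073) and *Hand2* (-0.036), then *Gata4* (-0.081), *Nkx2-5* (-0.046) and *Hand2* (-0.11) below 0 in the same order of comparisons. Quantile normalization did so for *Hand1* (-0.19) and *Hand2* (-0.035), for *Tbx20* (-0.0017) and for *Hand2* (-0.051), and rescaling without mitochondrially encoded and haemoglobin genes for *Tbx20* against heterozygous (-0.0033). With *Xist* as a covariate *Gata6* was at 0.093 and *Tbx20* at -0.059 in homozygous against heterozygous, and *Irx4* at 0.044, *Tbx5* at -0.044 and *Hand2* at -0.029 in heterozygous against wild type. Leaving out the 3 libraries with markers of other organs gave *Gata6* 0.16, *Nkx2-5* 0.11 and *Hand1* -0.044 in homozygous against wild type, *Gata6* 0.15 and *Mef2c* 0.30 against heterozygous, and *Gata6* 0.012 in heterozygous against wild type. Keeping the heterozygous one of them, a setting chosen after seeing the data, gave 0.16, 0.11 and -0.044, then *Gata6* 0.15, *Nkx2-5* 0.030 and *Mef2c* 0.21, then *Gata6* 0.015. Omission of single libraries moved, in homozygous against wild type, *Gata6* from -0.23 to 0.14, *Nkx2-5* from -0.11 to 0.15, *Irx4* from -0.25 to 0.020, *Hand1* from -0.068 to 0.32 and *Tbx5* from 0.20 to 0.80. Against heterozygous it moved *Gata6* from -0.22 to 0.15, *Nkx2-5* from -0.23 to 0.030, *Tbx20* from -0.18 to 0.30, *Mef2c* from -0.21 to 0.21 and *Hand2* from -0.022 to 0.18, and between heterozygous and wild type *Gata6* from -0.11 to 0.068, *Irx4* from -0.11 to 0.16 and *Hand1* from -0.23 to 0.17. Of the genes outside the 10, *Irx1*, *Irx2*, *Irx3*, *Irx5*, *Nppb*, *Gja5* and *Ankrd1* kept their direction in 22 of 22 settings, which include those that could not change a difference. They were named by their values in these same data, so this is no independent check. They were called with library weights and without wild-type replicate 3, settings that called 64% and 15.9% of all tested genes. *Irx2*, *Irx5* and *Gja5* were also called without homozygous replicate 3, where 1.81% of all tested genes were.

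The background of calls over all genes moved more than that of the factors. Homozygous against wild type, with 46 calls, gave 22 without a filter on low values, 240 after median-ratio scaling (39 higher), 71 after quantile normalization (12 higher), 77 after rescaling without mitochondrially encoded and haemoglobin genes, 8755 with library weights, and 11 both with only the compared groups and without the 3 libraries with markers of other organs; with all genes as deposited 26 of 46 were higher. Single omissions gave 13 to 2170: 14, 13 and 2170 without wild-type replicates 1, 2 and 3, 27, 28 and 28 without the heterozygous replicates, and 28, 22 and 247 without the homozygous ones. Homozygous against heterozygous, with 6, gave 2 with a pseudocount of 5 and 2 without a filter, 13, 11 and 10 after the 3 rescalings, 234 with library weights, 0 with only the compared groups and 0 with *Xist*, and 1 to 6 over single omissions. Heterozygous against wild type, with 2, gave 1 each with a pseudocount of 0.1, a mean of at least 5 TPM and *Xist*, 5 and 4 after median-ratio scaling and quantile normalization, 4425 with library weights, 0 with only the compared groups, 5 without the 3 libraries, and 1 to 6 over single omissions. Ratios between relatives kept values between -0.37 and 0.35 on the log2 scale over omissions. Libraries with the same replicate number had r between -0.03 and 0.36 in their deviations from the genotype mean. The highest were wild-type and heterozygous replicate 1 (0.36) and wild-type and heterozygous replicate 3 (0.30). Pairs with different numbers ran from -0.31 to 0.12, so whether the number pairs the libraries was not settled. The replicate block gave 17, 1 and 1 calls in the 3 comparisons and 0 for the factors. Read depth is unknown, so low genes such as *Hand1* and *Isl1* carry a counting error that could not be given.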
